A study of Mus musculus with 10 samples.

Results

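The 47 genes described here code for proteins that carry a cell through mitosis and separate its chromosomes. They were taken by symbol from a list of such genes and are 47 of the 24525 genes of the expression table. RNA was sequenced from colorectal tumours and from adjacent colon tissue of mice given azoxymethane (AOM), a mutagen, and dextran sulfate sodium (DSS), an irritant of the colon lining. The comparison asks how gene expression in the tumours differed from that in neighbouring tissue. There were 5 tumour and 5 adjacent libraries, and both groups came from treated animals: male C57BL/6 mice (C57BL/6N in the growth protocol), 7 weeks old and 18 to 20 g, received AOM once at 12.5 mg/kg. They then went through 3 cycles of 3 weeks, each with 5 days on 2% DSS and 16 days on plain water, and tissue was taken 10 weeks after AOM. No library is labelled as from the untreated mice (3 of the 15 in the study), and the adjacent tissue carries the AOM and DSS exposure too. The source labels give mouse number 1 for every library while the titles run from 1 to 5, so which of them come from 1 animal is not known. All p-values below rest on the spread among these libraries, and that may be smaller than the spread among animals.

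A dividing cell enters mitosis when cyclin-bound CDK1 becomes active. Condensin then compacts the chromosomes, kinesins and microtubule-binding proteins build the spindle, and kinetochores attach each chromosome to it. The spindle checkpoint holds back the anaphase-promoting complex until all chromosomes are attached. That complex then marks securin and the B cyclins for destruction, separase cuts the cohesin that joins sister chromatids, and the central spindle directs cytokinesis. In healthy colon, dividing cells sit in the lower part of the crypts, and the mature colonocytes and goblet cells nearer the surface have left the cell cycle. Transcripts of most mitosis genes accumulate in G2 and M phase, so their level in a tissue follows both how many cells divide and how much of each transcript these cells hold.

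Of the 47 genes, 45 were higher in tumours, Pttg1 was lower, and Cdkn3 did not pass the test (limma on log2(FPKM + 1), Benjamini-Hochberg adjusted over all 13016 genes tested, threshold 0.05). FPKM are fragment numbers divided by transcript length and by the library's total, and every change given below is tumour minus adjacent on the log2(FPKM + 1) scale, which understates the change of genes at low levels. The background was high: 57.2% of all genes tested were called higher and 19.3% lower, and the median log2 change over all of them was 0.35. The median of the 47 genes was 1.17, and 35 of them rose by at least 1, as did 16.2% of all genes tested. In all 45 genes every tumour lay above every adjacent sample, a separation that 46.5% of all genes tested also showed. Their tumour mean was 1.84 to 3.33 times their adjacent mean, and the highest limma adjusted p among them was 0.000255. With each library's median level set equal, which takes out the shift shared by all genes, 34.5% of all genes were called higher and 33.3% lower. The same 45 mitosis genes were still called higher and Pttg1 lower, with a median of 0.84. In bulk tissue, more dividing cells and more RNA of a gene in each dividing cell cannot be told apart.

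**Figure D1:**
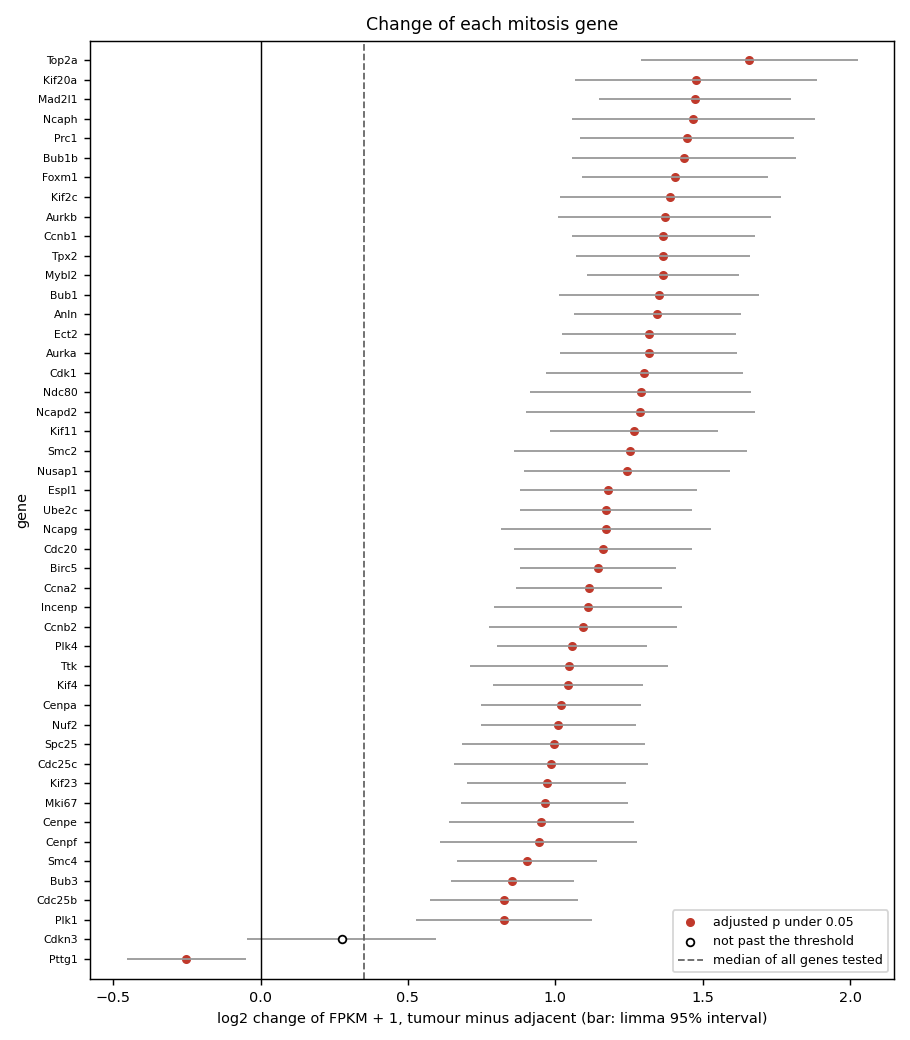
The x axis gives the limma log2 change of each of the 47 genes, tumour minus adjacent on log2(FPKM + 1), with its 95% interval as a bar, and the y axis lists the genes by size of change. The dashed line is the median of all genes tested, 0.35. Top2a lies at the top at 1.66, Pttg1 at the bottom at -0.25, and the interval of Cdkn3 spans 0.

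Because the genes moved together, the promoter sequences of those with a RefSeq entry (build GRCm38.p6) were searched. Of the 47 genes, 39 had a window of 250 bases before to 50 bases after the annotated start, and Aurkb, Tpx2, Smc4, Kif20a, Foxm1, Ccna2, Cdc25c and Incenp had none. The words searched on both strands were TTTGAA, the core of the cell cycle genes homology region (CHR), to which MuvB complexes bind, and CCAAT, which the factor NF-Y binds. A gene with several annotated starts had several windows and was counted once, if any of them matched. TTTGAA was found for 27 of the 39 genes (69.2%), against 20.2% of all 27025 genes with such a window, and CCAAT for 28 (71.8%) against 41.1%. Both words stood in the same window for 24 genes (61.5%) against 7.97% of all. The TTTGAA matches centred near the start, with a median first base 16.5 bases before it, and those of CCAAT farther out, at a median of 74 bases before it. The median log2 change was 1.17 for the 27 genes with TTTGAA and 1.19 for the 12 without. A match describes letters in a window and does not show that a factor binds there. The stretches below run from 250 to 6 bases before the start. They are shown for Top2a, with the largest change of the 47 genes, and Ube2c, the most abundant of the 47 in adjacent tissue. Also shown are the central kinase (Cdk1), a B cyclin (Ccnb2) and the gene that did not pass the test (Cdkn3). Capitals mark both words on the printed strand, TTTGAA and CCAAT, and their reverse complements TTCAAA and ATTGG.
Top2a: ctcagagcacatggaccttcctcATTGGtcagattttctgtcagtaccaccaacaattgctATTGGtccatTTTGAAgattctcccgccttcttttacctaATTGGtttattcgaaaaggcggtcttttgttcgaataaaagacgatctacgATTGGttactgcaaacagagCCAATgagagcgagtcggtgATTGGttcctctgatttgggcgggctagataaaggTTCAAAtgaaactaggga
Ube2c: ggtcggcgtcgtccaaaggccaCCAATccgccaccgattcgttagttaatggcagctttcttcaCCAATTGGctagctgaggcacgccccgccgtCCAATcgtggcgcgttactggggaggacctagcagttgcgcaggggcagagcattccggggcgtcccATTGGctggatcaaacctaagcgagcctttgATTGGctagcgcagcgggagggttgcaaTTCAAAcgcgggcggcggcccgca
Cdk1: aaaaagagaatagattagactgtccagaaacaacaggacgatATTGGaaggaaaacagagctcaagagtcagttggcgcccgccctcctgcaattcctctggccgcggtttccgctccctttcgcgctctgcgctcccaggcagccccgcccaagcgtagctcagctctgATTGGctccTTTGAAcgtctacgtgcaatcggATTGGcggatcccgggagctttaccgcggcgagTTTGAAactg
Ccnb2: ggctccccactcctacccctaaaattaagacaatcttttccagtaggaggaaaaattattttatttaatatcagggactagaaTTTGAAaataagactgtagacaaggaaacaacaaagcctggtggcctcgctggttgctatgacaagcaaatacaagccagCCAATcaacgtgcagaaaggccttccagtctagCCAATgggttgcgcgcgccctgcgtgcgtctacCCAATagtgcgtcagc
Cdkn3: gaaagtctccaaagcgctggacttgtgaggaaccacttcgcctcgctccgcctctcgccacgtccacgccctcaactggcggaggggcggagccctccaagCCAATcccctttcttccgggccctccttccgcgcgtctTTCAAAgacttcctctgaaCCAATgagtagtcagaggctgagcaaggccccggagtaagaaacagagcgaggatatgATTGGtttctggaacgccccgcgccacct

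Top2a (chr11:99024195-99024439, minus strand) held TTTGAA 2 times and CCAAT 6 times in this stretch, and Ube2c (chr2:164769679-164769923, plus strand) held them 1 and 6 times, with 1 palindromic CCAATTGG counted on both strands. Cdk1 (chr10:69352918-69353162, minus strand) held TTTGAA 2 times and CCAAT 3 times. Ccnb2 (chr9:70421560-70421804, minus strand) held them 1 and 3 times, and so did Cdkn3 (chr14:46760291-46760535, plus strand), the gene whose level did not pass the test. The window of Pttg1 held neither word. However, 190 of the 245 bases of its stretch (chr11:43425987-43426231, minus strand) lie in an annotated exon. That stretch is therefore mostly exon sequence, and the result does not show that the promoter of Pttg1 lacks the words.

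**Figure D2:**
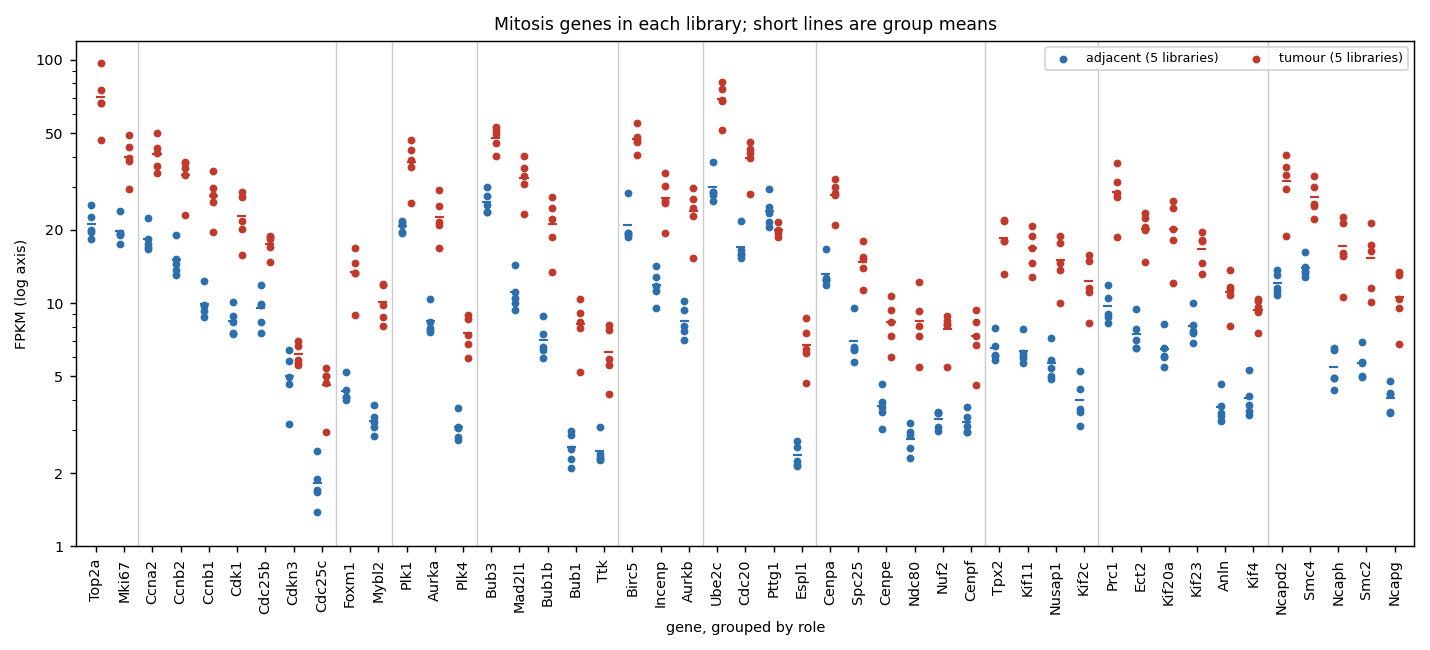
The x axis lists the 47 genes by role, and the y axis gives FPKM on a log scale, with 1 point for each of the 5 tumours (red) and 5 adjacent samples (blue) and a short line at each group mean. The tumour points lie above all adjacent points for every gene but Cdkn3 and Pttg1, whose groups overlap.

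Both proliferation markers rose. Top2a codes for topoisomerase II alpha, which untangles sister DNA before the chromosomes part (gene at chr11:98992943-99024189, minus strand, GRCm38). It was at 66.7, 46.7, 96.9, 66.6 and 75.0 FPKM in tumours 1 to 5 and at 25.3, 19.5, 20.0, 18.4 and 22.6 FPKM in adjacent samples 1 to 5. Its mean went from 21.2 ± 2.77 FPKM in adjacent tissue to 70.4 ± 18.1 FPKM in tumours, a log2 change of 1.66 (SE 0.17, adjusted p = 2.26e-05 by limma) and the largest of the 47. Tumour 3 was highest, tumour 2 lowest, and even tumour 2 stood well above every adjacent sample. Mki67 codes for Ki-67, which coats mitotic chromosomes and marks cycling cells in histology. It was at 39.5, 29.5, 48.9, 38.4 and 43.7 FPKM in tumours 1 to 5 and at 24.0, 19.1, 19.3, 19.3 and 17.6 FPKM in adjacent samples 1 to 5, a log2 change of 0.96 (SE 0.13, adjusted p = 7.36e-05 by limma). Its groups did not overlap either, but its rise was smaller than that of Top2a.

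Of the 7 genes of the CDK1 switch, 6 rose, with a median of 1.10 over the 7. Ccna2, cyclin A2, was at 36.6, 34.1, 49.9, 41.3 and 43.6 FPKM in tumours 1 to 5 and at 22.4, 18.3, 17.6, 17.0 and 16.7 FPKM in adjacent samples 1 to 5, a log2 change of 1.11 (SE 0.11, adjusted p = 2.26e-05 by limma). Ccnb2, cyclin B2, was at 33.8, 23.0, 38.0, 37.5 and 36.0 FPKM in tumours 1 to 5 and at 19.1, 13.7, 14.5, 15.2 and 13.1 FPKM in adjacent samples 1 to 5, a log2 change of 1.10 (SE 0.14, adjusted p = 7.09e-05 by limma). Tumour 2 fell well below the other tumours for Ccnb2 but not for Ccna2. Ccnb1, cyclin B1, was the most changed of this role, at 27.8, 19.6, 34.8, 26.0 and 29.6 FPKM in tumours 1 to 5 and at 12.3, 9.26, 8.74, 9.73 and 9.79 FPKM in adjacent samples 1 to 5, a log2 change of 1.37 (SE 0.14, adjusted p = 2.35e-05 by limma). Cdk1 itself went from 8.48 ± 1.10 FPKM in adjacent tissue to 22.7 ± 5.28 FPKM in tumours, a log2 change of 1.30 (SE 0.15, adjusted p = 3.82e-05 by limma). The phosphatases that remove the inhibitory phosphates of CDK1 also rose, Cdc25b by 0.83 (SE 0.11) and Cdc25c, which was scarcest of the 47 genes at 1.83 ± 0.398 FPKM in adjacent tissue, by 0.98 (SE 0.15).

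Cdkn3 codes for a phosphatase that acts on cyclin-dependent kinases (gene at chr14:46760541-46771669, plus strand). It was at 7.02, 5.70, 5.83, 6.67 and 5.55 FPKM in tumours 1 to 5 and at 6.44, 4.64, 4.97, 5.78 and 3.19 FPKM in adjacent samples 1 to 5. Its log2 change was 0.27 (SE 0.15, adjusted p = 0.105 by limma), with a 95% interval from -0.05 to 0.60. The tumours spanned a narrow range that the adjacent samples overlapped, since adjacent sample 1 exceeded 3 tumours and adjacent sample 5 was far below the rest. Without adjacent sample 1 it passed, at 0.36 (limma adjusted p = 0.0411). With library medians set equal the sign turned, at -0.056 (limma adjusted p = 0.752).

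Both transcription factors of the list rose more than the median of the 47 genes. Foxm1 activates genes of G2 and M phase, and it was at 13.3, 8.91, 16.9, 13.3 and 14.7 FPKM in tumours 1 to 5 and at 5.19, 4.12, 4.00, 4.12 and 4.40 FPKM in adjacent samples 1 to 5, a log2 change of 1.41 (SE 0.14, adjusted p = 2.3e-05 by limma). Mybl2, B-MYB, joins the MuvB complex, and it was at 8.81, 8.09, 12.0, 9.78 and 11.9 FPKM in tumours 1 to 5 and at 3.83, 2.85, 3.09, 3.40 and 3.26 FPKM in adjacent samples 1 to 5, a log2 change of 1.36 (SE 0.12, adjusted p = 1.55e-05 by limma). For Mybl2 the lowest tumour stood at 2.11 times the highest adjacent sample, the widest such gap of the 47 genes.

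All 3 mitotic kinases rose. Plk1, Polo-like kinase 1, drives mitotic entry, spindle formation and cytokinesis, and it was at 36.2, 25.8, 46.8, 38.9 and 42.7 FPKM in tumours 1 to 5 and at 21.7, 20.9, 19.6, 19.5 and 21.6 FPKM in adjacent samples 1 to 5. Its log2 change of 0.83 (SE 0.13, adjusted p = 0.000255 by limma) was, with that of Cdc25b, the smallest among the 45 genes that rose, and tumour 2 was only slightly above the adjacent samples. Plk4, the kinase that starts centriole duplication, was at 6.79, 5.95, 8.63, 7.40 and 8.93 FPKM in tumours 1 to 5 and at 3.70, 2.82, 3.06, 2.74 and 3.10 FPKM in adjacent samples 1 to 5, a log2 change of 1.06 (SE 0.11, adjusted p = 2.88e-05 by limma). Aurka, Aurora A, acts at centrosomes and spindle poles and was at 20.9, 16.8, 29.1, 21.5 and 25.1 FPKM in tumours 1 to 5 and at 10.4, 7.60, 7.79, 7.91 and 8.36 FPKM in adjacent samples 1 to 5, a log2 change of 1.32 (SE 0.14, adjusted p = 2.45e-05 by limma). Aurka had the largest change of the 3, and no kinase had overlapping groups.

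All 5 spindle checkpoint genes rose, with a median of 1.35. Bub3, which docks checkpoint proteins at kinetochores, was the most abundant of them, at 49.4, 40.1, 53.2, 45.4 and 51.7 FPKM in tumours 1 to 5 and at 30.0, 23.8, 27.6, 23.7 and 25.2 FPKM in adjacent samples 1 to 5. Its log2 change was 0.85 (SE 0.09, adjusted p = 3.13e-05 by limma), the smallest of the checkpoint genes. Mad2l1, MAD2, which binds and holds CDC20, was at 33.2, 23.2, 40.3, 30.8 and 36.0 FPKM in tumours 1 to 5 and at 14.3, 9.37, 11.2, 10.4 and 10.1 FPKM in adjacent samples 1 to 5, a log2 change of 1.47 (SE 0.15, adjusted p = 2.26e-05 by limma). Bub1b, BUBR1, part of the same inhibitory complex, was at 22.1, 13.4, 27.2, 18.6 and 24.5 FPKM in tumours 1 to 5 and at 8.83, 5.93, 6.59, 6.41 and 7.47 FPKM in adjacent samples 1 to 5, a log2 change of 1.44 (SE 0.17, adjusted p = 4.39e-05 by limma). In all 3 genes tumour 3 was the highest tumour and tumour 2 the lowest. The checkpoint kinases were scarcer: Bub1 went from 2.55 ± 0.374 FPKM in adjacent tissue to 8.21 ± 1.91 FPKM in tumours, by 1.35 (SE 0.15), and Ttk, MPS1, from 2.48 ± 0.353 FPKM in adjacent tissue to 6.30 ± 1.61 FPKM in tumours, by 1.05 (SE 0.15).

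The 3 genes among the 47 that belong to the chromosomal passenger complex, which corrects faulty attachments, all rose. Birc5, survivin, was at 46.6, 40.4, 54.8, 45.8 and 48.1 FPKM in tumours 1 to 5 and at 28.3, 19.4, 19.4, 18.7 and 19.1 FPKM in adjacent samples 1 to 5, a log2 change of 1.14 (SE 0.12, adjusted p = 2.52e-05 by limma). Incenp, the scaffold of the complex, was at 25.8, 19.5, 34.1, 26.2 and 30.2 FPKM in tumours 1 to 5 and at 12.8, 9.51, 11.3, 11.8 and 14.2 FPKM in adjacent samples 1 to 5, a log2 change of 1.11 (SE 0.14, adjusted p = 6.53e-05 by limma). Aurkb, Aurora B and its kinase, went from 8.47 ± 1.30 FPKM in adjacent tissue to 23.9 ± 5.48 FPKM in tumours, by 1.37 (SE 0.16). Adjacent sample 1 stood out for Birc5 but was not the highest adjacent sample for Incenp.

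Of the 4 genes of anaphase control, 3 rose and Pttg1 fell. Ube2c codes for the ubiquitin-conjugating enzyme of the anaphase-promoting complex, and it was at 67.5, 51.4, 81.4, 68.2 and 76.0 FPKM in tumours 1 to 5 and at 38.1, 28.5, 27.9, 28.7 and 26.4 FPKM in adjacent samples 1 to 5, a log2 change of 1.17 (SE 0.13, adjusted p = 3.36e-05 by limma). Cdc20, the activator of that complex, was at 41.4, 28.0, 45.9, 39.5 and 43.0 FPKM in tumours 1 to 5 and at 21.7, 15.9, 15.7, 15.3 and 16.6 FPKM in adjacent samples 1 to 5, a log2 change of 1.16 (SE 0.14, adjusted p = 4.08e-05 by limma). In both genes adjacent sample 1 was clearly the highest adjacent sample and tumour 2 the lowest tumour. Espl1, separase, the protease that opens cohesin (gene at chr15:102296266-102324357, plus strand), was at 6.23, 4.68, 8.69, 6.50 and 7.51 FPKM in tumours 1 to 5 and at 2.57, 2.14, 2.16, 2.24 and 2.72 FPKM in adjacent samples 1 to 5, a log2 change of 1.18 (SE 0.14, adjusted p = 3.7e-05 by limma).

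Pttg1 codes for securin, which binds and inhibits separase until anaphase (gene at chr11:43420250-43426251, minus strand). It was at 18.7, 19.9, 19.5, 21.5 and 19.9 FPKM in tumours 1 to 5 and at 23.6, 21.5, 24.9, 29.4 and 20.6 FPKM in adjacent samples 1 to 5. Its mean went from 24.0 ± 3.47 FPKM in adjacent tissue to 19.9 ± 1.02 FPKM in tumours, a log2 change of -0.25 (SE 0.09, adjusted p = 0.0272 by limma), 95% interval from -0.45 to -0.05. All tumours lay in a narrow band below the lowest adjacent sample except tumour 4, which exceeded adjacent sample 5, so the groups overlapped at 1 library on each side. In adjacent tissue Pttg1 was the third most abundant of the 47 genes, and in tumours it ranked 23. The call was lost when tumour 1, tumour 3, adjacent sample 3 or adjacent sample 4 was left out (limma adjusted p = 0.0529 to 0.0601). With library medians set equal the fall was larger, at -0.58 (limma adjusted p = 0.000506).

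All 6 centromere and kinetochore genes rose, with the smallest median of any role that rose as a whole, 1.00. Cenpa, the histone variant that marks the centromere, was at 27.9, 21.0, 32.4, 28.2 and 30.0 FPKM in tumours 1 to 5 and at 16.7, 12.4, 11.9, 12.4 and 12.6 FPKM in adjacent samples 1 to 5, a log2 change of 1.02 (SE 0.12, adjusted p = 4.58e-05 by limma). Spc25, a subunit of the microtubule-binding NDC80 complex, was at 14.0, 11.3, 18.0, 15.2 and 15.4 FPKM in tumours 1 to 5 and at 9.59, 6.39, 6.45, 6.63 and 5.74 FPKM in adjacent samples 1 to 5, a log2 change of 0.99 (SE 0.14, adjusted p = 0.000106 by limma). Adjacent sample 1 came close to the lowest tumour in Spc25, where tumour 2 was 1.18 times as high, the narrowest gap among the 45 genes. Other subunits of that complex rose too, Ndc80 by 1.29 (SE 0.17) and Nuf2 by 1.01 (SE 0.12). The kinetochore motor Cenpe rose by 0.95 (SE 0.14) and the large kinetochore protein Cenpf by 0.94 (SE 0.15).

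All 4 spindle assembly genes rose, with a median of 1.32. Tpx2, which targets Aurora A to spindle microtubules, was at 18.0, 13.2, 21.7, 17.9 and 21.9 FPKM in tumours 1 to 5 and at 7.90, 5.82, 6.07, 6.13 and 6.65 FPKM in adjacent samples 1 to 5, a log2 change of 1.36 (SE 0.13, adjusted p = 2.13e-05 by limma). Kif11, the motor that pushes spindle poles apart, was at 16.9, 12.8, 20.8, 14.6 and 18.9 FPKM in tumours 1 to 5 and at 7.80, 5.65, 6.05, 5.96 and 6.22 FPKM in adjacent samples 1 to 5, a log2 change of 1.27 (SE 0.13, adjusted p = 2.31e-05 by limma). Kif2c, a kinesin that takes microtubules apart, rose by 1.39 (SE 0.17), and Nusap1, which bundles spindle microtubules, by 1.24 (SE 0.16). Tumour 2 was the lowest tumour for Tpx2 and for Kif11.

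All 6 genes of the central spindle and cytokinesis rose, with a median of 1.33. Prc1, which cross-links the microtubules of the central spindle, was at 27.3, 18.7, 37.6, 28.3 and 31.6 FPKM in tumours 1 to 5 and at 11.9, 8.27, 8.79, 9.06 and 10.5 FPKM in adjacent samples 1 to 5, a log2 change of 1.45 (SE 0.16, adjusted p = 3.42e-05 by limma). Ect2, which activates RhoA at the cleavage plane, was at 20.1, 14.7, 23.5, 20.5 and 22.5 FPKM in tumours 1 to 5 and at 9.50, 6.53, 7.08, 6.55 and 7.83 FPKM in adjacent samples 1 to 5, a log2 change of 1.32 (SE 0.13, adjusted p = 2.28e-05 by limma). Kif20a, a kinesin of the central spindle, was at 20.1, 12.1, 26.4, 18.2 and 24.5 FPKM in tumours 1 to 5 and at 8.20, 5.99, 6.09, 5.45 and 6.55 FPKM in adjacent samples 1 to 5, a log2 change of 1.48 (SE 0.19, adjusted p = 5.67e-05 by limma). It was the gene with the second largest change of the 47. Anln, anillin of the contractile ring, rose by 1.35 (SE 0.13), Kif4 by 1.04 (SE 0.12) and Kif23, a subunit of centralspindlin, by 0.97 (SE 0.12). Kif20a shares 29.3% of its exon bases with Cdc23 on the other strand, Ube2c shares 22.8% with Tnnc2, and Kif4, Ncapg, Cdc25c, Ccna2 and Prc1 each share 11.1% to 15.1% with a neighbour. The library kit does not mark strand, so reads from such shared bases cannot be assigned to either gene.

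All 5 condensin genes rose, with a median of 1.25. Ncapd2 was at 33.8, 18.8, 40.7, 29.3 and 36.1 FPKM in tumours 1 to 5 and at 13.1, 11.2, 10.8, 11.5 and 13.6 FPKM in adjacent samples 1 to 5, a log2 change of 1.29 (SE 0.18, adjusted p = 8.71e-05 by limma). Smc4, an ATPase of the complex, was at 25.1, 22.1, 33.2, 25.7 and 30.1 FPKM in tumours 1 to 5 and at 16.1, 12.8, 14.1, 13.2 and 13.6 FPKM in adjacent samples 1 to 5, a log2 change of 0.90 (SE 0.11, adjusted p = 4.34e-05 by limma). Ncaph, which closes the ring, rose by 1.47 (SE 0.19), and Ncapg by 1.17 (SE 0.16). Smc2, the partner of SMC4 in every condensin, rose by 1.25 (SE 0.18). In Smc2 tumour 1, at 10.1 FPKM, was the lowest tumour, below tumour 2 at 11.6 FPKM.

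The ratio of 2 genes within a library asks whether they changed in proportion. For 10 pairs of partners or relatives it was tested on log2((FPKM + 1)/(FPKM + 1)) with a two-sided exact permutation test over the 10 libraries, whose smallest possible p is 0.00794, and 6 pairs passed after adjustment over the 10. These calls were made with the difference in means. With the difference in medians 0 pairs passed, and all 6 had an adjusted exact permutation p of 0.0794 (ratio Espl1/Pttg1 and ratio Top2a/Mki67 among them). Many ways of regrouping 5 against 5 libraries leave both medians unchanged, so the smallest possible p is larger with medians. All 6 pairs sat at that smallest p, so the test with medians cannot decide whether the calls depend on the statistic. Without tumour 2 and adjacent sample 1 together 0 pairs passed as well, where the smallest exact permutation p before adjustment is 0.0286. The ratio of Espl1 to Pttg1, separase to its inhibitor, was 0.334, 0.235, 0.446, 0.303 and 0.376 in tumours 1 to 5 and 0.109, 0.0994, 0.0866, 0.0761 and 0.132 in adjacent samples 1 to 5. Its mean was 0.339 ± 0.0789 in tumours and 0.101 ± 0.0215 in adjacent tissue (exact permutation p = 0.00794, 0.0198 after Benjamini-Hochberg adjustment), so separase RNA rose relative to securin RNA in every tumour. The ratio of Top2a to Mki67 was 1.69, 1.58, 1.98, 1.74 and 1.72 in tumours and 1.05, 1.02, 1.04, 0.950 and 1.28 in adjacent samples, in the same order (exact permutation p = 0.00794, 0.0198 after Benjamini-Hochberg adjustment). The lowest tumour ratio exceeded the highest adjacent ratio in both pairs.

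The ratio of Bub1b to Bub3 went from 0.270 ± 0.0260 in adjacent tissue to 0.436 ± 0.0674 in tumours (exact permutation p = 0.00794, 0.0198 after Benjamini-Hochberg adjustment). The ratio of Cdc20 to Mad2l1, the activator of the anaphase-promoting complex to its inhibitor, fell from 1.55 ± 0.120 to 1.21 ± 0.0531 (exact permutation p = 0.00794, 0.0198 after Benjamini-Hochberg adjustment). Bub1b thus rose more than Bub3, and Mad2l1 more than Cdc20. The ratio of Ccnb1 to Ccnb2 went from 0.663 ± 0.0539 to 0.821 ± 0.0806 (exact permutation p = 0.0159, 0.0265 after Benjamini-Hochberg adjustment), and that of Plk1 to Plk4 from 6.75 ± 0.611 to 5.02 ± 0.461 (exact permutation p = 0.0159, 0.0265 after Benjamini-Hochberg adjustment). Both lost their call in 7 of the 10 tests that left out 1 library (exact permutation, adjusted p = 0.0529 in each). The Ccnb1 to Ccnb2 call held without tumour 2, tumour 4 or adjacent sample 5, and the Plk1 to Plk4 call without tumour 2, tumour 3 or adjacent sample 1. With a pseudocount of 5 neither passed, and the Plk1 to Plk4 difference changed sign. The 4 pairs that did not pass were Aurka to Aurkb (0.998 ± 0.0676 and 0.960 ± 0.0869; exact permutation p = 0.421, 0.467 after Benjamini-Hochberg adjustment), Birc5 to Incenp (1.78 ± 0.347 and 1.77 ± 0.197; exact permutation p = 0.825, 0.825 after Benjamini-Hochberg adjustment), Ncaph to Smc2 (0.961 ± 0.118 and 1.15 ± 0.264; exact permutation p = 0.206, 0.258 after Benjamini-Hochberg adjustment) and Cdc25b to Cdc25c (5.27 ± 0.635 and 3.90 ± 0.667; exact permutation p = 0.127, 0.181 after Benjamini-Hochberg adjustment).

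**Figure D3:**
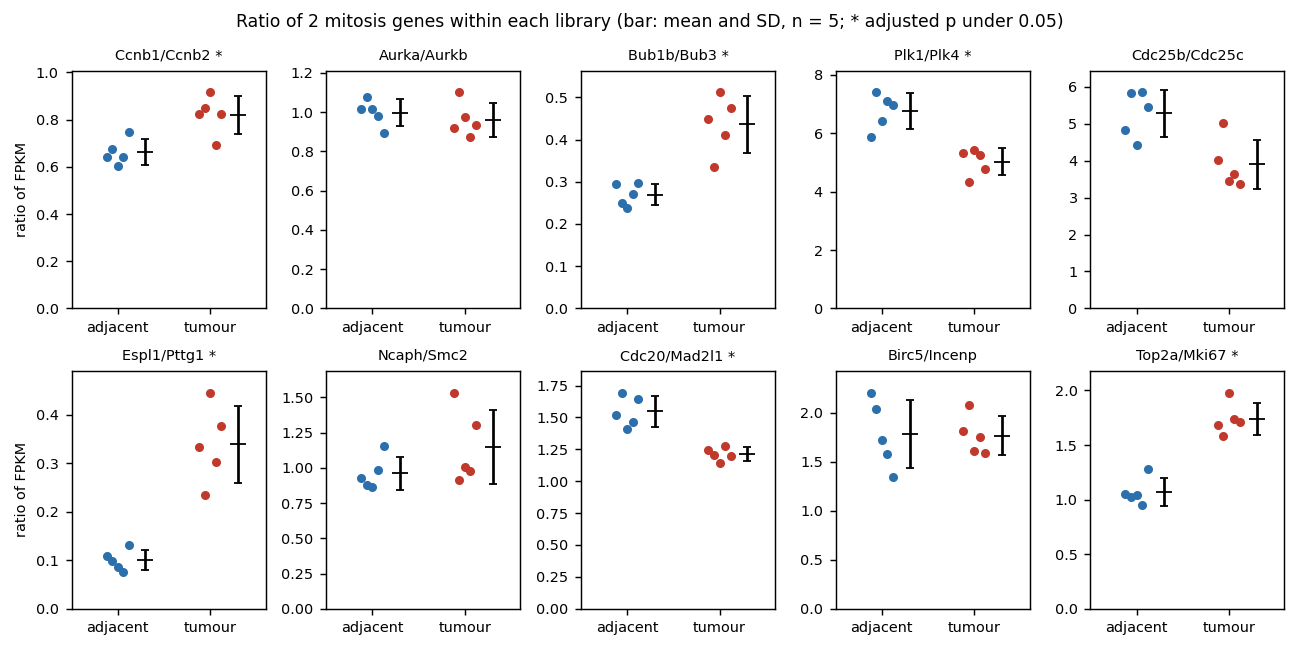
Each panel shows the FPKM ratio of 1 pair of genes on a y axis from 0, with 1 point for each of the 5 adjacent samples and 5 tumours and bars of mean ± SD beside them. The tumour ratios of Espl1 to Pttg1 run from 0.235 to 0.446, all above the highest adjacent ratio of 0.132.

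The order of levels among the 47 genes also differed between the groups, as a description on the FPKM scale, which is per length. In adjacent tissue it ran Ube2c (29.9 FPKM), Bub3 (26.1 FPKM), Pttg1 (24.0 FPKM), Top2a (21.2 FPKM), Birc5 (21.0 FPKM), Plk1 (20.7 FPKM) and Mki67 (19.9 FPKM). Neighbours in this order differed by less than the larger of their SDs. In tumours it ran Top2a (70.4 FPKM), Ube2c (68.9 FPKM), Bub3 (47.9 FPKM), Birc5 (47.2 FPKM), Ccna2 (41.1 FPKM), Mki67 (40.0 FPKM) and Cdc20 (39.6 FPKM). Among these neighbours only Ube2c and Bub3 differed by more than the larger of their SDs.

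Within each group the libraries were ordered alike across most of the 47 genes. Tumour 2 was the lowest tumour in 44 of them and tumour 3 the highest in 40, against 45.7% and 18.8% of all genes tested. The median gene lay 0.44 below its tumour mean in tumour 2 on the log2 scale and 0.31 above it in tumour 3. Adjacent sample 1 was the highest adjacent sample in 42 of the 47 genes, against 27.3% of all genes tested, with a median gene 0.26 above its group mean. Summed over the 47 genes, tumours 1 to 5 held 1023, 765, 1283, 1025 and 1159 FPKM and adjacent samples 1 to 5 held 542, 414, 429, 426 and 436 FPKM. Tumour 2 was not the lowest tumour for Pttg1, Cdkn3 or Smc2. Adjacent sample 1 was the highest adjacent sample for Cdkn3 but not for Pttg1. The genes of DNA replication showed a like order in part, with tumour 2 lowest in 44 of 48 and adjacent sample 1 highest in 34 of 48. Tumour 3 was highest in 26 of the 48 and tumour 5 in 20, against 40 and 4 of the 47 mitosis genes. Adjacent sample 4 was the lowest adjacent sample in 30 of the 48, against 13 of the 47.

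**Figure D4:**
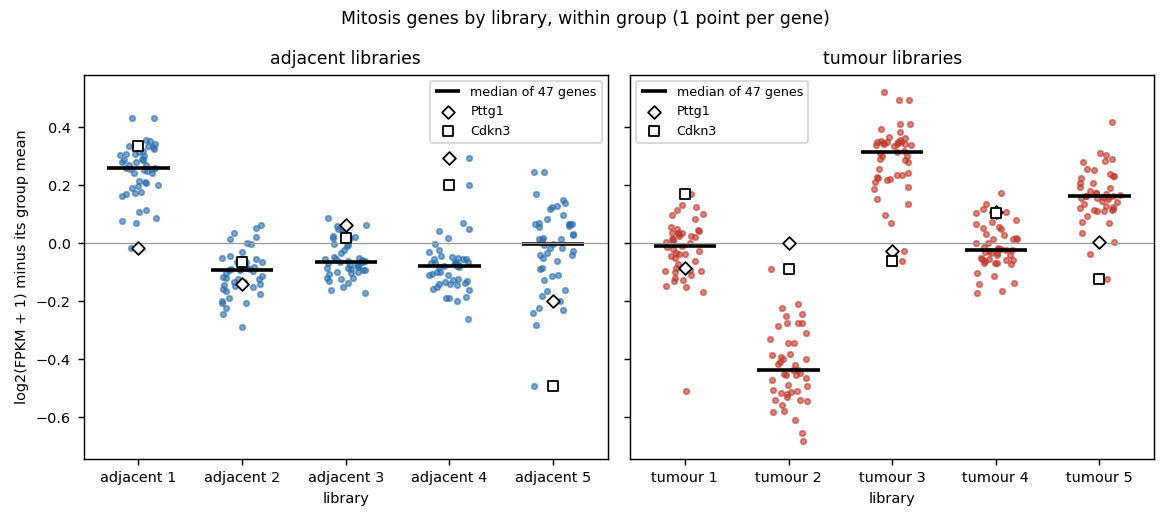
The y axis gives each gene's log2(FPKM + 1) minus its mean in its own group, the x axis the 10 libraries, with 1 point per gene and a bar at the median of the 47. The bar lies at -0.44 in tumour 2, at 0.31 in tumour 3 and at 0.26 in adjacent sample 1, and the markers of Pttg1 and Cdkn3 lie apart from the cloud in several libraries.

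Cell type markers moved with the groups and, in part, with these libraries. The 10 epithelial markers were detected in every library, but their summed level was 4720 to 7831 FPKM in tumours against 10097 to 12015 FPKM in adjacent tissue, and 9 of the 10 were lower in tumours. Mature colonocyte markers summed to 113 to 944 FPKM in tumours and 2961 to 4734 FPKM in adjacent tissue (9 of 9 lower), and goblet cell markers to 1474 to 4339 FPKM and 15250 to 18654 FPKM (9 of 9 lower). Fibroblast markers summed to 636 to 1059 FPKM in tumours and 92.6 to 226 FPKM in adjacent tissue (9 of 9 higher), endothelial markers to 54.9 to 83.6 FPKM and 14.4 to 32.3 FPKM (8 of 8 higher), and leukocyte markers to 223 to 490 FPKM and 33.5 to 169 FPKM (8 of 13 higher, 2 lower). Crypt stem cell markers summed to 345 to 435 FPKM in tumours and 181 to 255 FPKM in adjacent tissue (5 of 7 higher), smooth muscle markers to 126 to 213 FPKM and 40.3 to 122 FPKM (3 of 7 higher), and red blood cell genes to 57.1 to 557 FPKM and 43.1 to 380 FPKM. Over all genes tested 57.2% were called higher and 19.3% lower. The share called higher was 42.9% for smooth muscle markers, below that background, and 61.5% for leukocyte markers, near it. Of all these markers only Olfm4 of the stem cell list, Hba-a2 and Hbb-bs were listed at 0 in any library. Tumour 2, with the lowest mitosis gene levels, had the highest sums of epithelial, colonocyte, goblet, fibroblast, endothelial and stem cell markers among the tumours. Of its stem cell sum of 435 FPKM, Prom1 held 209 FPKM. By mean log2(FPKM + 1) its stem cell markers were instead the lowest of the tumours, at 4.54 against 4.70 to 4.83 in the others. Tumour 3, with the highest mitosis gene levels, had the lowest epithelial, colonocyte and goblet sums. Adjacent sample 1 had the highest fibroblast, smooth muscle and stem cell sums of the adjacent samples, at 226, 122 and 255 FPKM. Adjacent sample 3 was close in fibroblast markers, at 221 FPKM, and in smooth muscle markers, at 113 FPKM. Prom1 held 169 FPKM of the stem cell sum of adjacent sample 1. By mean log2(FPKM + 1) the stem cell markers were highest in adjacent sample 5, at 3.95 against 3.62 in adjacent sample 1. The part of these cell types in the mitosis gene results was not tested. Without tumour 2 and adjacent sample 1 together, 46 of the 47 genes were called higher and 0 lower by limma (Pttg1 at adjusted p = 0.0593), with a median of 1.36, where 58% of all genes tested were called higher and 19.5% lower.

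Related gene lists rose to different extents. Of 76 other mitosis genes in the table, 74 rose, and the median was 1.01. Cks1b, a small subunit of cyclin-dependent kinases, rose the most, from 13.3 ± 2.51 FPKM in adjacent tissue to 42.5 ± 9.93 FPKM in tumours (1.59, SE 0.17). Cdc25a, the relative of Cdc25b and Cdc25c that acts earlier in the cycle, did not pass (0.16, SE 0.08, limma adjusted p = 0.0922), and neither did the centromere chaperone Hjurp (0.18, SE 0.13, limma adjusted p = 0.209). With library medians set equal Cdc25a was called lower, at -0.17 (limma adjusted p = 0.0429). All 48 DNA replication genes rose, with a median of 1.14, led by Gins1 of the replicative helicase, from 2.86 ± 0.360 to 10.8 ± 2.62 FPKM (1.58, SE 0.15). Both medians lay near the 1.17 of the 47 genes.

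Other mitotic machines had smaller medians. Of 17 anaphase-promoting complex genes, 16 rose, with a median of 0.64, led by Ube2s, which extends ubiquitin chains, from 73.8 ± 6.93 to 152 ± 20.5 FPKM (1.02, SE 0.11). Of 15 genes of cohesin and condensin II, 12 rose, with a median of 0.50, led by the condensin II gene Ncapg2, from 3.41 ± 0.488 to 9.93 ± 2.18 FPKM (1.29, SE 0.15). Of 11 genes of the DREAM and MuvB complexes tested, 7 rose, with a median of 0.29, led by the histone chaperone Rbbp4, from 27.0 ± 3.33 to 60.2 ± 10.9 FPKM (1.12, SE 0.14). These counts stand beside the 57.2% of all genes called higher. With library medians set equal, 12 of 17 anaphase-promoting complex genes were higher and 1 lower, 8 of 15 cohesin and condensin II genes were higher and 3 lower, and 3 of 11 DREAM and MuvB genes were higher and 4 lower. Of the other mitosis genes 69 of 76 were then higher and 1 lower, and of the DNA replication genes 45 of 48 were higher and 0 lower. Over all genes tested the shares in that setting were 34.5% higher and 33.3% lower.

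**Figure D5:**
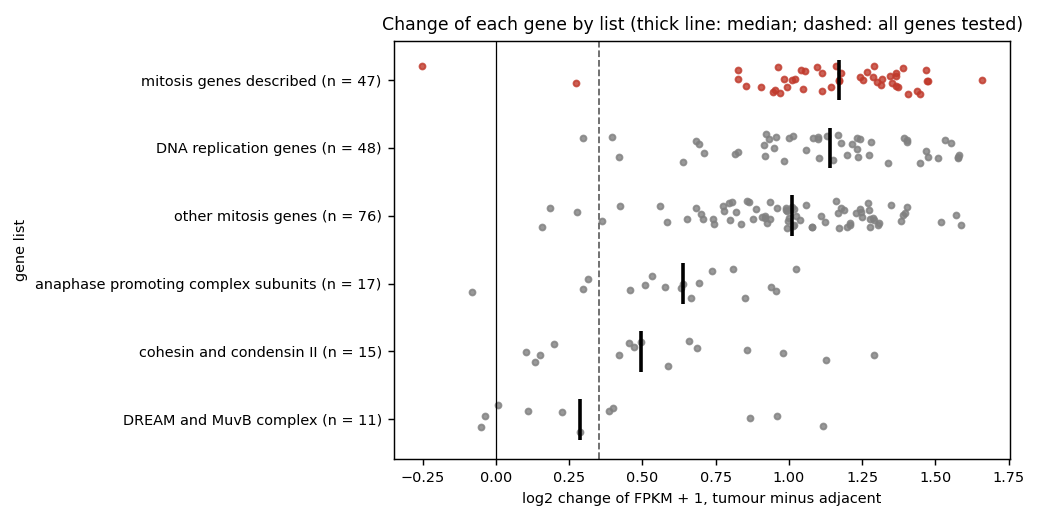
Each row is a gene list and each point a gene, with its log2 change, tumour minus adjacent, on the x axis, a thick line at the list median and a dashed line at the median of all genes tested. The medians are 1.17 for the 47 mitosis genes, 1.14 for DNA replication, 0.64 for the anaphase-promoting complex and 0.29 for DREAM and MuvB genes, beside 0.35 over all genes tested.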

How the data were processed

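Polyadenylated RNA of 5 tumours and 5 adjacent samples was sequenced from TruSeq RNA v2 libraries on a HiSeq instrument, per the labels' protocols. The deposited table gives FPKM, as the authors computed them. Build mm10 and the tools Salmon 0.8.2, RSEM 1.2.15, Cufflinks 2.2.1 and TopHat2 2.1.0 stand in the submitters' processing notes, but the tool behind the table is not given there. The table states no read depth, so no counting intervals were computed; total FPKM was 462009 to 484712 per library. One line of text was left out, and any pair of libraries differed in at least 17741 genes.

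With limma 3.58.1 (R 4.3.3), group alone was fitted to log2(FPKM + 1) by robust empirical Bayes with an intensity trend. The 13016 genes tested averaged 1 FPKM or more. All 47 genes passed this filter. Tests were two-sided, and the fit was tested on simulated data. Ratios used exact permutation (scipy 1.17.1), and values are mean ± SD with n = 5. Gene positions come from GENCODE M21. The genes and lists were chosen with earlier results of these data known. Every library's value is given for the 2 most abundant genes of each role, the 3 largest and 3 smallest changes, genes that fell or did not pass, and pairs whose ratio passed. From other lists the largest rise is named. Alternatives were other pseudocounts, filters, scalings and fits, a replicate block and leaving out libraries.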

Additional observations from a re-analysis of the deposited data

Results flagged for a closer look

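In groups of 5, a library is given here where its gap to the nearest other library took up an unusually large share of the group's range. Over the 114 groups looked at this held for 12, where chance gives about 1 in 20 for a single group. All groups draw on the same 10 libraries, so they are not independent and 1 unusual library can be counted many times. The count of 12 therefore cannot be set against that rate. Adjacent sample 1 was the highest adjacent library in 10 of the 12. It was at 24.0 FPKM for Mki67 (next highest 19.3 FPKM), 22.4 FPKM for Ccna2 (18.3 FPKM), 10.4 FPKM for Aurka (8.36 FPKM), 3.10 FPKM for Ttk (2.41 FPKM) and 28.3 FPKM for Birc5 (19.4 FPKM). It was at 21.7 FPKM for Cdc20 (16.6 FPKM), 38.1 FPKM for Ube2c (28.7 FPKM), 16.7 FPKM for Cenpa (12.6 FPKM), 9.59 FPKM for Spc25 (6.63 FPKM) and 7.80 FPKM for Kif11 (6.22 FPKM). Tumour 2 was the lowest tumour in the other two, at 23.0 FPKM for Ccnb2 (next lowest 33.8 FPKM) and 5.44 FPKM for Nuf2 (8.14 FPKM).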

How the results depend on the processing

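The count of mitosis genes called higher was 45 in most settings, 42 with a filter at a mean of 5 FPKM, which tests fewer genes, and 46 with the replicate block and without adjacent sample 1. The median log2 change was 0.89 with a pseudocount of 5, 0.84 with library medians set equal, 0.89 with quantile normalization, and 1.10 to 1.28 when single libraries were left out. The count called lower, only Pttg1, was 0 to 1 when single libraries were left out and 0 without tumour 2 and adjacent sample 1 together, an alternative chosen after seeing the data. Over all genes, setting medians equal gave 4486 higher and 4329 lower, and quantile normalization 4759 and 3934, against 7442 and 2509. Cdkn3 turned to -0.056 with medians set equal and to -0.18 with quantile normalization. Of the 10 ratios, 4 to 7 passed when single libraries were left out. With the difference in medians as statistic 0 passed (for example ratio Top2a/Mki67, adjusted exact permutation p = 0.0794), as did 0 without tumour 2 and adjacent sample 1 together, where the smallest exact permutation p is 0.0286. Without a pseudocount, also added later, Cdc25b to Cdc25c passed as well. With a pseudocount of 5, Plk1 to Plk4 turned to 0.10 and Cdc25b to Cdc25c to 0.15. The ratio Birc5/Incenp turned to -0.025 without tumour 2, -0.0030 without adjacent sample 4 and -0.057 without adjacent sample 5, and was at most 0.11, without adjacent sample 1. Same-numbered samples correlated at 0.0223 to 0.422, 3 of the 5 over 0.1, so the numbers were not taken to pair the samples, and whether they do is not settled; with the replicate block Cdkn3 passed (limma adjusted p = 0.0352), 46 genes were higher and 1 lower, and not every library correlated best with its own number. The causes of these changes were not tested, and read depth sets no limit that could be computed here.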

Other observations

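Among further mitosis genes, chosen after their values were seen, Cks2, the paralog of Cks1b, went from 39.8 ± 2.47 FPKM in adjacent tissue to 60.8 ± 10.2 FPKM in tumours, a log2 change of 0.58 (SE 0.11). The kinases that hold CDK1 inactive rose too, Wee1 from 4.83 ± 1.08 to 10.2 ± 2.92 FPKM (0.92, SE 0.20) and Pkmyt1 from 8.65 ± 0.419 to 15.5 ± 3.43 FPKM (0.75, SE 0.15). Fzr1, which activates the anaphase-promoting complex after anaphase, went from 26.7 ± 3.00 to 33.0 ± 2.17 FPKM (0.30, SE 0.08), beside the 0.35 median of all genes.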
